A study of Drosophila melanogaster with 14 samples.

Results

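The comparison described here set sgg isoA null embryos of Drosophila melanogaster against embryos of their control stock, and its members were all genes counted in the 3 null and the 3 control libraries, 6 of the 14 libraries of the study. The count table lists 17493 genes, of which 14795 had at least 1 count in these 6 libraries and 10397 passed the filter on low counts and were tested. The null embryos came from a stock homozygous for a CRISPR/Cas9 deletion of the last exon used by the Sgg-PA class of proteins, in which the DsRED marker that replaced the exon had been removed with Cre. Mothers and fathers both carried the allele, so the embryos lacked this class from the mother and from their own genome. The control embryos came from the progenitor strain, THattP40, the nos-Cas9 line into which the deletion constructs were injected. The embryos of both groups were 10 to 15 h old, whole, unsorted by sex and frozen in liquid nitrogen. The 3 libraries of a group are described as biological replicates of whole-embryo collections. The injected flies had been crossed to w1118 flies and then balanced, so the null stock and its control differed in crossing history as well as in the deletion, and the effects of these cannot be told apart. The other 8 libraries, 4 of sgg isoB zygotic null embryos (from an sggisoB/FM7 GFP by FM7 GFP/Y cross) and 4 of their own controls from the progenitor strain crossed to the same balancer, are used below only as a second reference at the same age.

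Shaggy is the fly GSK-3, a serine/threonine kinase that phosphorylates Armadillo (β-catenin) for destruction in the absence of a Wnt signal, and that also acts on glycogen synthase, on microtubule proteins and on the circadian clock. The gene makes many proteins that share the kinase domain and differ at their ends. The Sgg-PA and Sgg-PB classes each have their own last coding exon.

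The guide RNAs listed by the study for the isoA null construct are shown because they directed the cuts for the deletion, and their positions were not looked up here. They are shown with the protospacer in lower case and the PAM in capitals, 5′ to 3′, and both target sgg on the X chromosome.
A_sgg_gRNA_1: agaaaccgaggcagcggcgtCGG
A_sgg_gRNA_2: gccctcaatagcagcggaagTGG
In the Ensembl annotation of the BDGP6 assembly, sgg (FBgn0003371) lies on the plus strand of the X chromosome from 2633952 to 2679553. The last exon of the transcript sgg-RA spans 2677101 to 2677846, 746 bases, of which the first 188 are coding before the stop codon and the rest is 3′ UTR. Of 19 annotated sgg transcripts, 5 end translation at this stop codon and 12 at that of sgg-RB, and 6 hold an exon with this start.

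The null libraries held between 15841397 and 18311205 counts and the controls between 8082962 and 12800846, so a level was known less precisely in the controls. A level is given as CPM, the count put on a common scale by dividing by the TMM-scaled library size, and 3 counts, the floor used for bounds on a fold where every library of a group lay at or below it, stood for 0.157 to 0.193 CPM in the null libraries and 0.234 to 0.379 CPM in the controls. The 3 null libraries resembled one another closely (Pearson r of log2 CPM across genes 0.988 to 0.989), and the controls less so (0.959 to 0.973), with control replicate 3 farthest from the others of its group. The median standard deviation of log2 CPM between replicates was 0.156 in the nulls and 0.238 in the controls.

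Each control library also held transcripts that no other library of the 6 held at a like level. A level over 4 times the highest of the other 5 libraries was found for 40 genes in control replicate 3, 12 in control replicate 2, 6 in control replicate 1 and 0, 1 and 2 genes in null replicates 1, 2 and 3, and none of these genes is among those called below. In control replicate 3 they included CG7299 with 724 CPM, where the other libraries had 5.54 to 16.6, the odorant-binding protein gene Obp56a with 597 against 15.4 to 32.0, and CG32241 with 191 against 0 to 1.33. The genes of control replicate 2 were mostly structural RNAs that carry no normal poly(A) tail. The 28S rRNA pseudogene 28SrRNA-Psi:CR40596 had 8034 CPM there and 16.8 to 212 elsewhere, the mitochondrial small ribosomal RNA mt:srRNA had 709 against 7.15 to 31.4, and the 7SK RNA gene snRNA:7SKa had 111 against 0.367 to 3.46. In control replicate 1 the genes included BomS1 and BomS2, which encode Toll-induced immune peptides, with 28.7 and 26.9 CPM against at most 3.28 in any other library. These genes were chosen after their values were seen.

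The targeted gene was examined first, since it checks the labels. The level of sgg was 266, 276 and 332 CPM in the 3 null libraries and 262, 277 and 193 CPM in the controls. The groups overlapped, and the log2 fold change of 0.26 (standard error 0.16) did not pass edgeR's quasi-likelihood test (adjusted p = 0.403). The two-sided exact permutation test of log2 CPM gave p = 0.3, where 3 libraries against 3 cannot go below 0.1. The table holds a single count over all exons of sgg, and the last exon of sgg-RA makes up 5.97% of the bases in any exon of the gene (19.6% with the longer exons of other transcripts that share its start), so that this count checks the label only weakly.

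In all, 101 genes were called, with an adjusted p up to 0.05 and a log2 fold change no nearer to 0 than 0.7. They make up 0.971% of the genes tested. Of these, 30 (0.289%) were higher in the null embryos and 71 (0.683%) lower. The 2 groups did not overlap in any of the 101 genes, and they did not overlap in 24.8% of all genes tested. An unadjusted p under 0.05 was found for 1966 genes (18.9%), and the median log2 fold change of all genes was -0.01.

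**Figure D1:**
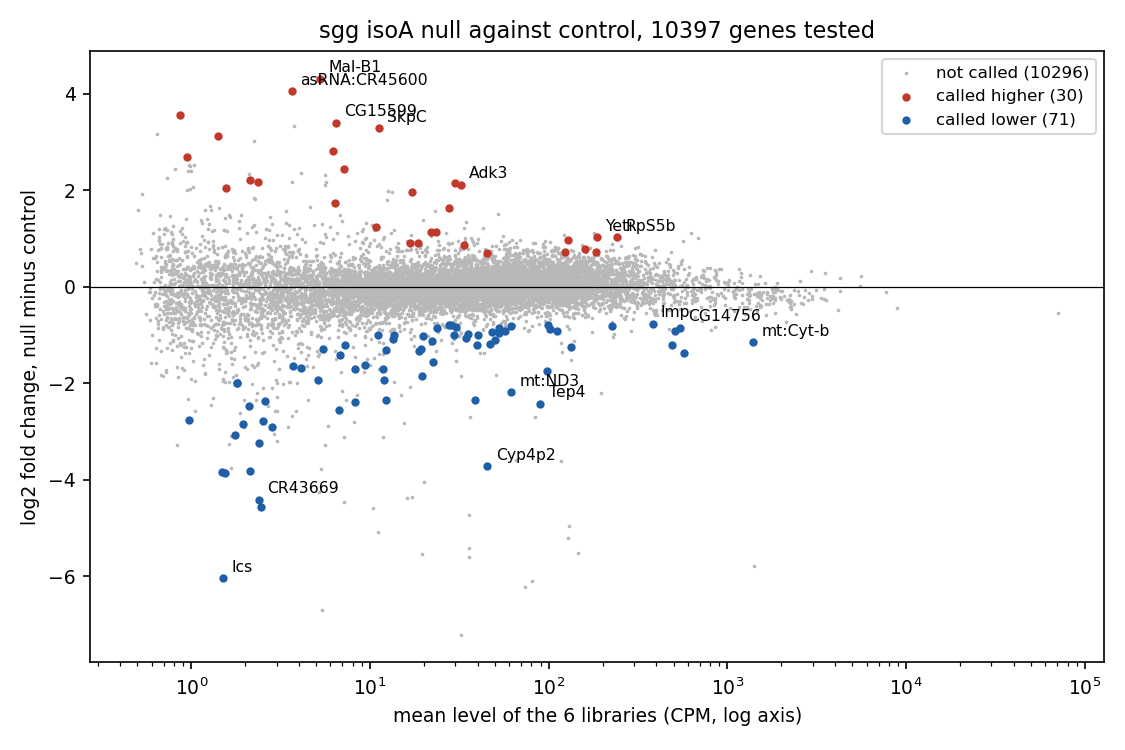
Log2 fold change of each of the 10397 genes tested (null minus control) against its mean level over the 6 libraries (CPM, log axis). Called genes are coloured, 30 higher in red and 71 lower in blue, and several of the largest fitted falls are grey, that is, not called.

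Leaving out single libraries changed the number of genes called. Such a fit also has fewer replicates, and what this alone contributed was not tested. Without null replicate 1, 2 or 3 the number of genes called was 10, 12 and 6, without control replicate 1 it was 35, without control replicate 2 it was 113, and without control replicate 3 it was 183. Of the 101 genes, 10, 11 and 6 were still called without null replicate 1, 2 or 3, and 31, 61 and 94 without control replicate 1, 2 or 3. All 101 kept the direction of their fold change in each of these fits. Adk3, CG40498, Mal-B1, CG15599 and asRNA:CR45600 kept their call whichever library was left out, and 6 genes, Prosap, CG7065, Herc4, CG8100, CG32695 and lncRNA:CR45258, lost it each time. The calls given below for groups of genes therefore rest on all 6 libraries.

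The genes called higher with the smallest p-values were a mixed set. Adk3 (FBgn0026602, 2R from 7243024 to 7245776) had 52.9, 53.1 and 51.2 CPM in the null libraries and 12.3, 12.1 and 11.8 CPM in the controls. The replicates of either group lay close together in this gene, and it had the smallest p of all genes tested (log2 fold change 2.11, standard error 0.12, edgeR adjusted p = 7.58e-04). Mal-B1, a maltase that splits sugars (FBgn0032381, 2L from 11847226 to 11849169), had 9.61, 11.2 and 9.21 CPM in the nulls and 0.703, 0.253 and 0.455 CPM in the controls, 143 to 213 counts against 2 to 9. This was the largest fitted rise (4.31, standard error 0.34, edgeR adjusted p = 0.00311). CG15599 on the X chromosome had 9.56, 15.4 and 10.5 CPM against 1.09, 1.26 and 1.00 CPM. The antisense RNA asRNA:CR45600 on 3R had 8.14, 7.76 and 4.83 CPM against 0.469, 0.379 and 0.364 CPM, and its exons overlap CG3984, CG3987 and CG6912 in a count made without strand. The log2 fold changes of these were 3.40 (standard error 0.29) and 4.05 (standard error 0.36). SkpC, a paralog of the SCF ubiquitin ligase subunit Skp1, had 25.3, 14.4 and 21.1 CPM in the nulls and 1.48, 3.28 and 1.64 CPM in the controls (3.29, standard error 0.35), and lost its call without null replicate 1 or 3.

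Among the called genes that rose, those of highest level changed less. RpS5b, a paralog of ribosomal protein S5 used in the germ line, had 311, 295 and 366 CPM in the nulls and 121, 164 and 191 CPM in the controls (1.03 on the log2 scale, standard error 0.17). Prosap, the fly Shank scaffold of the postsynaptic density, had 196, 229 and 256 CPM against 148, 130.1 and 138 CPM (0.71, standard error 0.13). The adjusted p-values of edgeR for both, 0.0412 and 0.048, were close to the threshold. The replicates of neither group reached into the other, but RpS5b lost its call in every fit that left out a library other than control replicate 3.

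The called genes were not spread evenly over the genome. Chromosome arm 2R held 35 of the 101, 34.7% (95% exact binomial interval 25.5% to 44.8%), and 2064 of the 10397 genes tested (1.7% called). It was followed by 2L with 24 of 1817 (1.32%), 3L with 16 of 2068 (0.774%), X with 10 of 1681 (0.595%) and 3R with 10 of 2574 (0.389%). The mitochondrial genome had the highest rate, with 6 called of 17 genes tested (35.3%). The interval is given for 2R because it had the highest share among the nuclear arms. The interval takes the called genes as independent, although several were neighbours, and does not cover differences between embryo collections. Leaving out 1 library gave shares on 2R of 23.9% to 40%. The share was also lower with DESeq2 and in a fit of all 14 libraries, as given further below. None of 88 genes on chromosome 4 was called by edgeR, where 13 had an unadjusted p under 0.05, DESeq2 called 1 and limma-voom 0. The share of genes whose groups did not overlap differed less between the arms, 26.9% on 2R, 26.6% on 2L, 24.6% on X, 23.1% on 3L and 23% on 3R. Around the deletion itself, 160 genes were tested whose start lay within 1000000 bases of that of sgg, and edgeR called 0 of them (unadjusted p under 0.05 in 29, DESeq2 3, limma-voom 0). Over all genes tested, edgeR called 0.971%, DESeq2 400 of 14712 and limma-voom 103 of 10397. The counts by tool for the gene lists below are to be read beside these.

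The densest run of called genes lay at the centromere end of 2R, where 7 of the first 12 genes tested on the arm were called, between 326768 and 2262115. The first 6 of these in order were all higher in the null embryos. DIP-lambda, a cell surface protein of the immunoglobulin superfamily, had 9.24, 10.8 and 9.21 CPM in the nulls and 2.19, 4.42 and 2.37 CPM in the controls. CG40498 had 45.1, 54.2 and 46.7 CPM against 11, 12.5 and 9.38 CPM. The rolled gene (rl), which encodes the ERK MAP kinase of the EGFR pathway, had 157, 161 and 188 CPM against 79.2, 101 and 78.4 CPM. In each of these the lowest null library lay above the highest control. The pseudogene CR40190 had 11.9, 12.4 and 12.0 CPM against 2.74, 1.89 and 2.00 CPM, and CG40191 had 212, 192 and 196 CPM against 109, 121 and 122 CPM. Yeti, an essential gene of the heterochromatin of this arm, had 249, 234 and 261 CPM against 116, 132 and 119 CPM. The log2 fold changes from the centromere outwards were 1.73, 2.15, 0.97, 2.43, 0.77 and 1.02, with standard errors of 0.11 to 0.30. The next gene, lncRNA:CR44042, had 1.16 (standard error 0.24) and was not called (edgeR adjusted p = 0.0736), the 4 genes after it had -0.09 to 0.23, and CG17684, the last of the 12, was lower, with 6.2, 4.51 and 6.06 CPM against 16.6, 17.2 and 20.9 CPM (-1.70, standard error 0.20). In this run 2, 2 and 1 of the 7 calls remained without null replicate 1, 2 or 3, and 4, 7 and 7 without control replicate 1, 2 or 3.

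**Figure D2:**
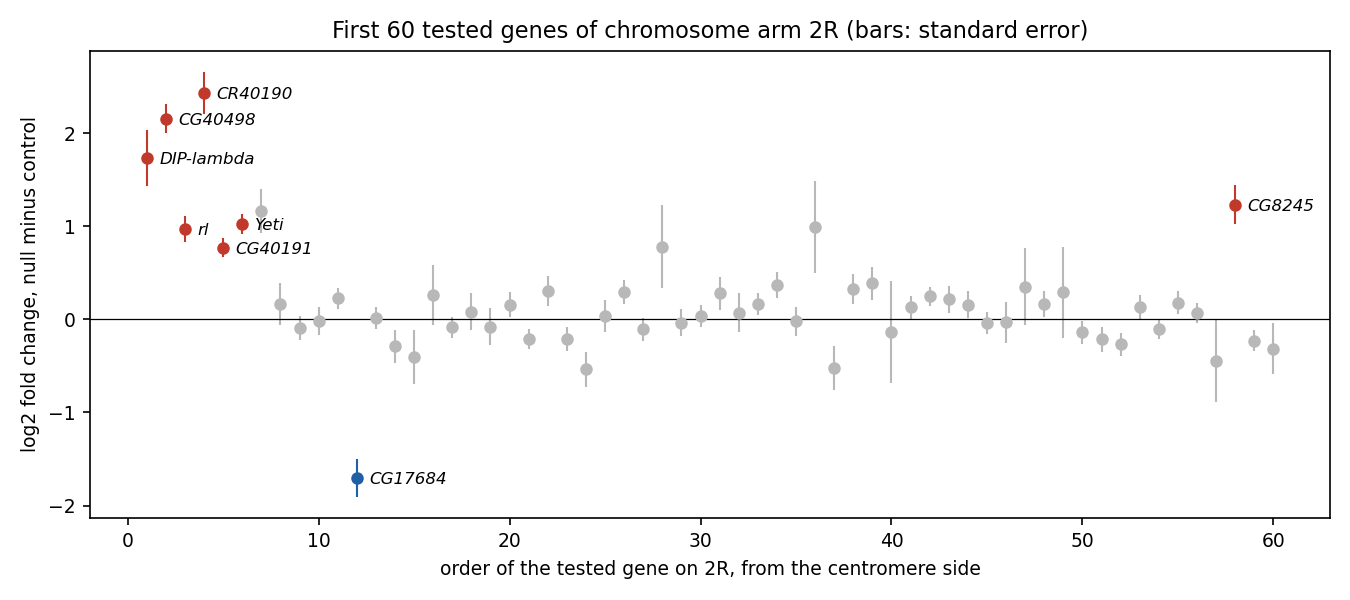
Log2 fold change (null minus control, with its standard error as a bar) of the first 60 genes tested on 2R, by their order from the centromere side. The first 6 genes lie between 0.77 and 2.43, most genes after lncRNA:CR44042 lie near 0, and the other called genes are CG17684 at -1.70 and, far from the run, CG8245.

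The genes called lower with the smallest p-values were mostly of moderate level. Tep4, which encodes a thioester-containing protein (FBgn0041180, 2L from 19548507 to 19556451), had 34.0, 20.9 and 29.5 CPM in the nulls and 189, 124 and 140.2 CPM in the controls (log2 fold change -2.43, standard error 0.22, edgeR adjusted p = 0.00532). CG17633 had 12.6, 12.1 and 9.47 CPM against 33.9, 36.6 and 30.8 CPM, and the tetraspanin gene Tsp42El had 33.0, 28.7 and 34.4 CPM against 68.2, 65.7 and 72.1 CPM. In all of these, every null library lay well below every control. Rdh1 had 17.8, 10.0 and 9.99 CPM against 62.2, 60.5 and 70.5 CPM (-2.35, standard error 0.24). CG14756, the called gene of highest level outside the mitochondrial genome, had 396, 345 and 415 CPM against 711, 635 and 736 CPM (-0.85, standard error 0.11). Tep4 lost its call only without null replicate 3, and the others lost it without 2 or more of the libraries. CG17633 overlaps ppk18, and Rdh1 overlaps DCTN4-p62.

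A few genes were close to silent in the null embryos. The pseudogene CR43669, which overlaps grp, had 2, 4 and 5 counts in the null libraries and 72, 31 and 46 in the controls, 0.105 to 0.322 CPM against 3.92 to 5.63 CPM (log2 fold change -4.42, standard error 0.42). The gene lcs had 1, 0 and 1 counts in the nulls and 49, 11 and 41 in the controls, and its mean control level was at least 15.4-fold higher than that of 3 counts in the shallowest null library. The larval cuticle gene Lcp1 went the other way, with 25, 31 and 29 counts in the nulls and 2, 2 and 0 in the controls, at least 4.23-fold higher in the nulls by the same measure. Both lost their call without any 1 of the null libraries, Lcp1 also without control replicate 1 or 2, and CR43669 lost its call without null replicate 2.

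The 8 libraries of the isoB experiment allow each isoA group to be set against a wider range of levels, with all 14 libraries scaled together. This comparison was chosen after the data had been seen. In 48 of the 101 called genes the 3 isoA controls, and not the nulls, lay outside the range of the other 11 libraries, in 32 the 3 nulls alone did so, in 3 both groups did, and in 18 neither. Over all genes tested the controls lay outside in 9.17% (alone in 9.14%), the nulls in 3.56% (alone in 3.53%) and both in 0.0289%, and among the genes whose isoA groups did not overlap these shares were 35.9% and 13.5%. Of the 30 genes called higher, the nulls alone stood apart in 15 and the controls alone in 12, and of the 71 called lower, 17 and 36. A group that lay between the other isoA group and the isoB libraries does not count as apart by this rule. The isoB embryos were selected by the lack of balancer fluorescence and came from other crosses. The paper describes the isoB nulls so selected as hemizygous males, and their controls were selected in the same way. The isoA embryos were not sorted by sex, so sex differs between the experiments. What these differences contributed was not tested.

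Mal-B1 and asRNA:CR45600, which had the largest fitted rises, were genes in which the isoA controls stood apart. Mal-B1 averaged 9.87 CPM in the isoA nulls, 0.467 in the isoA controls, 9.55 in the isoB zygotic nulls and 8.19 in the isoB controls. For asRNA:CR45600 the group means were 6.83, 0.40, 11.7 and 17.1 CPM in the same order. In both genes 11 libraries had the transcript at a several-fold higher level than the 3 isoA controls. CR43669 was the reverse, with 4.53 CPM in the isoA controls and 0.11 to 0.209 CPM in the other 3 groups, and so was the P450 gene Cyp4p2, with 83.5 CPM against 2.3 to 6.29.

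In CG15599, CR40190, Adk3, Tep4 and SK the nulls stood apart, though in SK the isoA controls also lay below all 8 isoB libraries. CG15599 averaged 11.7 CPM in the isoA nulls and 1.11 CPM in the isoA controls, and the 8 isoB libraries ranged from 0.452 to 1.41 CPM. Tep4 averaged 27.7 CPM in the nulls and 149.6, 128 and 135 CPM in the isoA controls, isoB zygotic nulls and isoB controls. Adk3 averaged 51.7 CPM against 12.0, 16.9 and 10.3 CPM, and it was also higher in the isoB zygotic nulls than in their controls, by 0.69 on the log2 scale (edgeR adjusted p = 0.0136), just under the fold threshold. CG40191 and rl were also higher in the isoB zygotic nulls, by 0.43 and 0.39 (edgeR adjusted p = 0.0126 and 0.0394), and Yeti and CG40498 had 0.37 and 0.40 there (0.0625 and 0.0593). In the run on 2R, the isoA nulls alone stood apart in DIP-lambda, rl, CR40190, CG40191 and Yeti. CG40498 belonged to the genes in which both isoA groups stood apart, and CG17684 was a gene in which the controls did. DIP-lambda and CR40190 had -0.02 and 0.30 in the isoB zygotic nulls (edgeR adjusted p = 0.955 and 0.346). Whether the isoA change differed from the isoB change was tested by an interaction term over the 14 libraries, which passed in 43 of the 101 called genes and in 2.58% of all genes tested. The 101 genes were chosen for their isoA difference, which enters the interaction, so this count describes them and is no separate evidence. Of the 90 called genes that were also fitted in the isoB experiment, 16 were called there, 13 in the same direction, where 4.45% of all genes tested in both experiments were called in isoB.

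**Figure D3:**
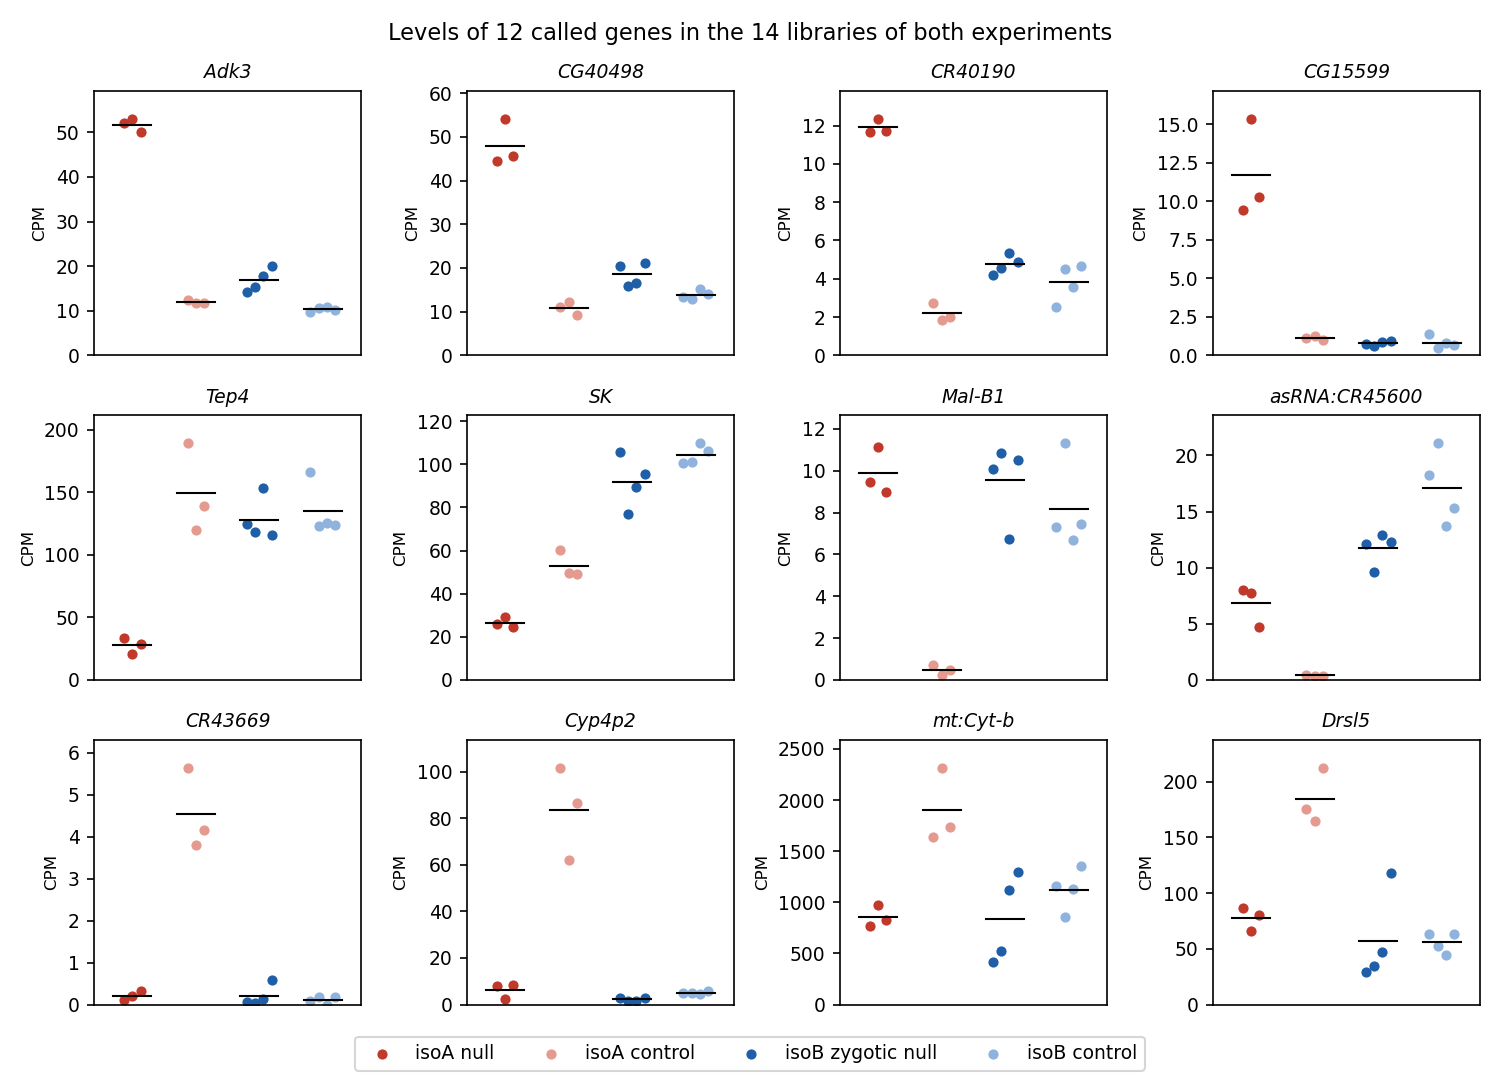
Levels (CPM, scaled over 14 libraries, linear axes from 0) of 12 called genes in the isoA null, isoA control, isoB zygotic null and isoB control libraries. Points are libraries and bars are group means. In the top row and in Tep4 and SK the isoA nulls lie apart (in CG40498 the isoA controls as well). The isoA controls of SK also lie below all isoB libraries. From Mal-B1 on the isoA controls lie apart, as in Cyp4p2 with 83.5 CPM on average against at most 6.29 in any other group.

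The mitochondrial genome encodes 13 subunits of the respiratory chain and of ATP synthase, of which 12 were tested. All 12 had a negative log2 fold change, with a median of -0.86, and 6 were called lower (50%, against 0.971% of all genes). Cytochrome b, mt:Cyt-b, had 784, 980.0 and 848 CPM in the nulls and 1640.5, 2386 and 1749.5 CPM in the controls. The ATP synthase subunit mt:ATPase6 had 319, 293 and 334 CPM against 600.2, 1019 and 843 CPM, and the complex I subunit mt:ND4 had 302, 318 and 269 CPM against 571, 751 and 722 CPM. Every null library lay below every control in these genes, and of the 12, only mt:ND2 had overlapping groups. Over all genes tested the groups did not overlap in 24.8%. The exons of mt:ATPase6 share bases with those of mt:ATPase8 and mt:CoIII, as do those of mt:ND4 with mt:ND4L, and by default the counter assigns reads over such bases to neither gene. The complex I subunit mt:ND3 had 16.1, 32.3 and 17.8 CPM against 84.3, 134 and 84.5 CPM, the largest fitted fall of the set (-2.19, standard error 0.30). The log2 fold changes of mt:Cyt-b, mt:ATPase6, mt:ND4, mt:ND5 and mt:ND1 were -1.15, -1.38, -1.20, -0.91 and -0.81, with edgeR adjusted p-values of 0.0106 to 0.0324. The 3 cytochrome oxidase subunits, the most abundant of these transcripts by CPM, were not called by edgeR, while DESeq2 called 9 of the 12 genes and limma-voom 6. mt:CoI had 3388 to 3545 CPM in the nulls and 4165 to 5934 CPM in the controls (-0.49, edgeR adjusted p = 0.15), mt:CoII had -0.59 and mt:CoIII -0.73.

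**Figure D4:**
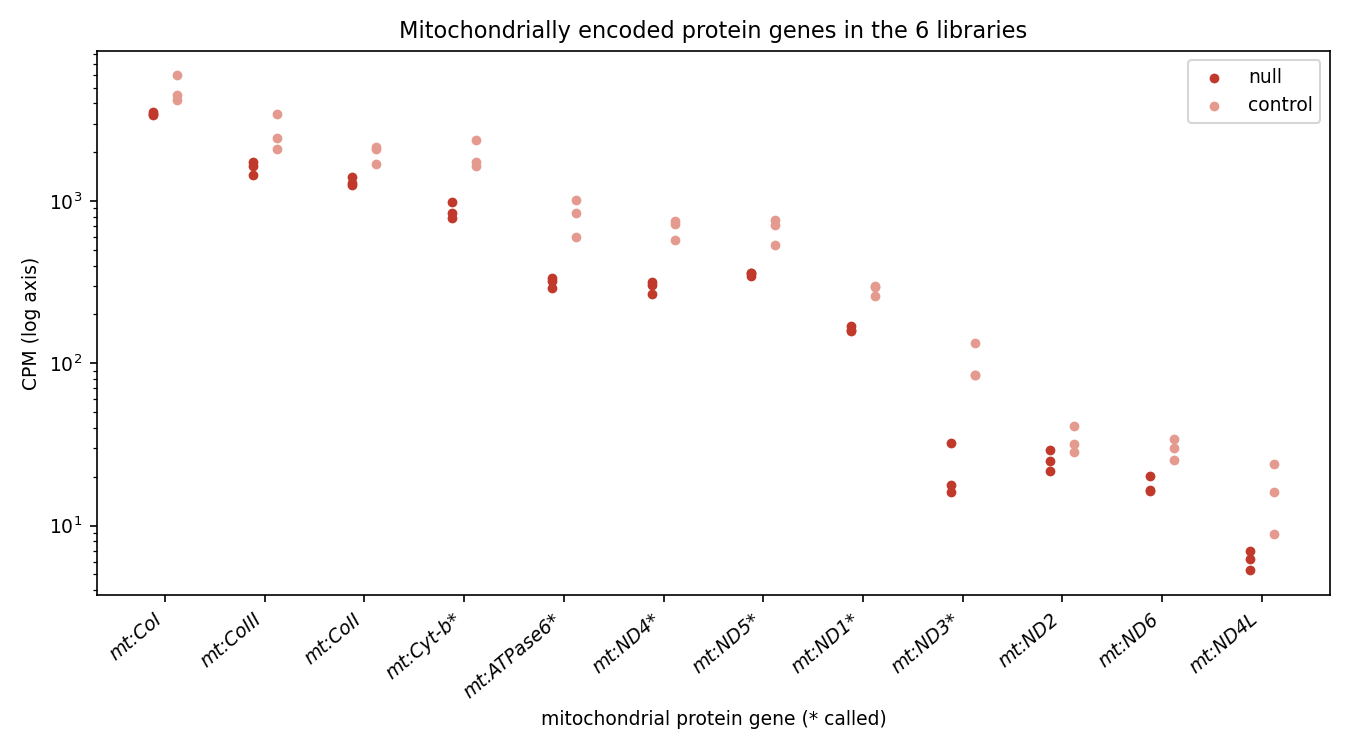
Levels (CPM, log axis) of the 12 mitochondrially encoded protein genes tested in the 3 null and 3 control libraries, ordered by level. Asterisks mark the 6 called genes, and in 11 of the 12 every null point lies below every control point.

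Of the ribosomal RNAs of the mitochondrion, the large one, mt:lrRNA, was not called. It had 52878 to 59807 CPM in the null libraries and 77956 to 91790 CPM in the controls (log2 fold change -0.55, standard error 0.10, edgeR adjusted p = 0.0553). The 38 structural RNAs tested (ribosomal, small nuclear and small nucleolar) summed to 53059 to 59876 CPM in the nulls and to 78059 to 92762 CPM in the controls, most of it mt:lrRNA. The part of these RNAs, and of the structural RNAs raised in control replicate 2, in the result for the protein genes was not tested. Without control replicate 2 the call remained in 5 of the 6 protein genes, and without control replicate 1 or 3 in all 6, whereas without null replicate 1, 2 or 3 it remained in 0, 1 and 0. In 10 of the 12 genes the isoA controls alone lay outside the range of the other 11 libraries and in none did the nulls. Over all genes tested the controls alone did so in 9.14%. mt:Cyt-b, for example, averaged 859 CPM in the isoA nulls, 1898 in the isoA controls, 839 in the isoB zygotic nulls and 1125 in the isoB controls.

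Of 68 nuclear genes of the respiratory chain, 62 were fitted lower, against 5296 of the 10397 genes tested. Their median log2 fold change was -0.27. An unadjusted p of edgeR under 0.05 was found for 25 of them, against 18.9% of all genes tested. Null and control levels were fully separated in 39 of these 68 genes, against 24.8% of all genes tested. None was called by edgeR, DESeq2 or limma-voom. COX4, a subunit of cytochrome oxidase, had 322, 302 and 312 CPM in the nulls and 397, 359.6 and 516 CPM in the controls (-0.44, standard error 0.14, edgeR adjusted p = 0.175). In 21 of the 68 the isoA controls alone lay outside the range of the other 11 libraries (9.14% of all genes tested), and in 0 the nulls (3.53%).

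Enzymes of detoxification supplied several called genes, all lower in the null embryos. Of 64 cytochrome P450 genes 2 were called (3.12%, against 0.971% of all genes), the neighbours Cyp4p2 and Cyp4p1 on 2R. Cyp4p2 had 8.25, 2.20 and 8.76 CPM in the nulls and 101, 64.2 and 87.2 CPM in the controls (log2 fold change -3.73, standard error 0.45), and Cyp4p1 had 3.73, 4.20 and 4.25 CPM against 31.7, 12.0 and 18 CPM (-2.35, standard error 0.34). The rest of the family went both ways, 28 of the 64 being fitted higher. Of 32 glutathione S-transferases, which conjugate glutathione to reactive compounds, 3 were called (9.38%), GstE1, GstE5 and GstE9, which lie in a stretch of 9 tested GstE genes on 2R from 18398393 to 18409835. GstE1 had 40.7, 30.9 and 45.5 CPM against 71.4, 79.6 and 71.8 CPM (-0.93, standard error 0.16). GstE5 had 5.41, 3.46 and 2.77 CPM against 10.9, 11.5 and 15.7 CPM (-1.70, standard error 0.29), and GstE9 had 4.10, 4.20 and 4.83 CPM against 10.8, 10.4 and 9.02 CPM (-1.20, standard error 0.20). GstE1 overlaps GstE10, and GstE9 overlaps imd. The other 6 genes of the stretch ranged from -0.80 for GstE4 to 0.09 for GstE8. Over the whole family the median was -0.44, with 22 of 32 fitted lower, the lowest of the nuclear gene lists. Ugt317A1, a UDP-glycosyltransferase, had 80.4, 65.8 and 72.2 CPM against 125, 124 and 131 CPM (-0.80, standard error 0.12). It was the only call of edgeR among 30 genes of its family, where DESeq2 called 4 (400 of 14712 over all genes) and limma-voom 1. The 3 GstE calls remained only without control replicate 3 and were lost without any other library. Both P450 calls were lost without null replicate 1 or 3, and Cyp4p1 also without null replicate 2, and that of Ugt317A1 remained only without control replicate 2 or 3.

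Most genes listed for the nervous system were not called. Of 51 neuronal and synaptic genes none was called by edgeR (unadjusted p under 0.05 in 6, DESeq2 1, limma-voom 0), 28 were fitted higher and 23 lower, and the median was 0.01. The neuronal marker elav had 232 to 250.3 CPM in the nulls and 229 to 260.5 CPM in the controls, and the synaptic vesicle gene nSyb had 136 to 162 against 109 to 149 CPM. Both pairs of ranges overlap. The 21 neuroblast and proneural genes had a median of 0.18, the 30 genes of chordotonal organs and sensory cilia 0.11 and the 21 glial genes -0.11. None of these was called by edgeR, DESeq2 or limma-voom, and an unadjusted p under 0.05 was found in 3 genes of each list. The marker repo of glia had 37.2 to 40.7 CPM in the nulls and 28.6 to 41.1 CPM in the controls.

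Among the lists of neural genes, calls were found in that of the ion channels. Of 24 voltage-gated and calcium-activated channel genes and their partners, 3 were called lower (12.5%, against 0.683% of all genes), while the median of the list was 0.00. This list, like the others, was chosen with earlier results of these data known. Its share of called genes therefore describes the list and was not tested. SK, the small-conductance calcium-activated potassium channel, had 26.4, 29.1 and 25.3 CPM in the nulls and 60.3, 51.0 and 49.4 CPM in the controls (log2 fold change -0.99, standard error 0.13, edgeR adjusted p = 0.0197). Shaker (Sh), a voltage-gated potassium channel, had 22.8, 27.1 and 21.5 CPM against 53.4, 47.2 and 39.6 CPM (-0.97, standard error 0.16). Dyschronic (dysc), a PDZ scaffold that binds the potassium channel Slowpoke, had 36, 37.9 and 38.2 CPM against 76.9, 64.7 and 61.5 CPM (-0.86, standard error 0.13). In all 3 every null library lay below every control, as in all 71 genes called lower. The sodium channel para (-0.79, edgeR adjusted p = 0.134) was not called, and slo itself had 0.02. By the rule above the nulls alone stood apart in the 3 genes, but in SK and Sh the isoA controls also lay below all isoB libraries. SK averaged 26.6 CPM in the isoA nulls, 53.0 in the isoA controls and 91.8 and 104 in the isoB groups. Scaled over 14 libraries, Sh had 39.4 to 53.4 CPM in the isoA controls and 55.1 to 96.4 CPM in the isoB libraries. Imp and lncRNA:cherub, which are active in neural stem cells and were picked after their values were seen, also had lower means in the isoA nulls than in the other 3 groups, with Imp at 279, 474, 752 and 754 CPM and lncRNA:cherub at 21.4, 38.1, 77.8 and 69.4 CPM in the isoA nulls, isoA controls, isoB zygotic nulls and isoB controls. The 3 channel calls remained without control replicate 3, 2 of them without control replicate 2, and none without any other library.

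The Wnt pathway, whose signal Shaggy opposes, held no called gene among 38 tested by edgeR (unadjusted p under 0.05 in 11, DESeq2 1, limma-voom 0). The median was 0.19, with 21 fitted higher and 17 lower, and values ranged from -0.26 to 0.80. The direct substrate of the kinase, arm, had 1039, 996 and 1077 CPM in the nulls and 785, 978 and 655 CPM in the controls (0.36, standard error 0.15, edgeR adjusted p = 0.242). The Dishevelled gene dsh had 0.60 (edgeR adjusted p = 0.0896), the β-catenin co-activator pygo had 0.80 (0.159) and the scaffold Axn had 0.42 (0.203). The 19 segment polarity and Hox genes had a median of -0.02 with 1 unadjusted p under 0.05, and the 25 early patterning genes one of 0.14 with 4, and edgeR, DESeq2 and limma-voom called none of either.

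Genes of humoral immunity moved in both directions, with 4 called of 42 (9.52%, against 0.971% of all genes) and a median of -0.21. Besides Tep4, those called lower were Drsl5, a Drosomycin-like peptide, with 87.9, 66.2 and 82.2 CPM in the nulls and 175, 170.3 and 213 CPM in the controls (log2 fold change -1.24, standard error 0.15), and SPE, the protease that activates the Toll ligand Spätzle, with 9.40, 8.97 and 6.96 CPM against 39.8, 20.7 and 31.3 CPM (-1.86, standard error 0.25). GILT3, a lysosomal thiol reductase, was higher, with 30.9, 27.6 and 32.0 CPM against 11.6, 14.5 and 15.0 CPM (1.14, standard error 0.15). SPE overlaps CG18754. SPE, Drsl5 and GILT3 were genes in which the isoA controls stood apart from the other 11 libraries, and all 3 lost their call without any 1 of the null libraries, GILT3 also without control replicate 1.

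Markers of other tissues gave few calls. None of 22 hemocyte genes was called by edgeR (unadjusted p under 0.05 in 5, DESeq2 1, limma-voom 1). Of these, 11 were fitted higher and 11 lower, with a median of 0.003. Their summed level was 7824 to 8613 CPM in the nulls and 7814 to 8418 CPM in the controls. The hemocyte receptor NimC1 had 5.93, 6.19 and 6.25 CPM in the nulls and 13.5, 13.9 and 10.4 CPM in the controls (log2 fold change -1.04, edgeR adjusted p = 0.0536), and hemolectin (Hml) reached 31.6 CPM in control replicate 3 alone, with 0.758 to 2.84 CPM in the other libraries. None of 31 muscle genes was called by edgeR, DESeq2 or limma-voom (unadjusted p under 0.05 in 5), and the myosin heavy chain gene Mhc had 3957 to 4939 CPM against 3886 to 4169 CPM. Of 88 cuticle protein genes, made by the late epidermis, only Lcp1 was called by edgeR (1.14%, against 0.971% of all genes). DESeq2 called 10 of them (400 of 14712 over all genes) and limma-voom 1. Their summed level ranged from 8612 to 10130 CPM in the nulls and from 7535 to 13649 CPM in the controls, and Cpr47Eb had 47.5, 3.28 and 159 CPM in the 3 controls against 1.26 to 1.61 CPM in the nulls (-5.60, standard error 1.16, edgeR adjusted p = 0.0781). None of 17 heat shock protein genes was called by edgeR (unadjusted p under 0.05 in 3, DESeq2 1, limma-voom 0), with a median of -0.14.

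Transcripts of the ovary were the list that stood highest in the null embryos. Of 27 genes of eggshell, yolk and maternal germ line, 23 were fitted higher, with a median log2 fold change of 0.40, and 1 was called (3.7%, against 0.971% of all genes). Cp15, which encodes a chorion protein of the eggshell, had 6.30, 15.5 and 10.8 CPM in the nulls and 1.48, 1.26 and 1.82 CPM in the controls (2.82, standard error 0.38, edgeR adjusted p = 0.0197). The vitelline membrane gene Vm26Aa had 5.99, 13.7 and 7.67 CPM against 1.80, 1.14 and 3.28 CPM (2.11, edgeR adjusted p = 0.08), Vm26Ab had 3.01 (0.0543) and the yolk protein gene Yp1 had 2.53 (0.0781). The groups did not overlap in any of these. Over the list they did not overlap in 10 of 27 genes, against 24.8% of all genes tested. DESeq2 called 8 genes of the list, and 400 of 14712 over all genes. In 11 of the 27 the isoA nulls alone lay outside the range of the other 11 libraries and in 0 the controls. Over all genes tested the nulls alone did so in 3.53% and the controls alone in 9.14%. Cp15 averaged 10.8 CPM in the nulls and 1.51, 0.243 and 0.412 CPM in the isoA controls, isoB zygotic nulls and isoB controls. Summed over the list, the level was 628 to 649 CPM in the nulls and 301 to 609 CPM in the controls. Whole embryos make no eggshell, and how much ovarian RNA the collections held was not tested. The call of Cp15 was lost without null replicate 2 or 3 or control replicate 1.

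The remaining lists were small. Of 28 genes of glycogen, trehalose and maltose metabolism only Mal-B1 was called (3.57%, against 0.971% of all genes), with a median of -0.09. The glycogen synthase gene Glys, whose product is a substrate of GSK-3, had 0.26 (edgeR adjusted p = 0.308). The 10 genes of X dosage compensation and sex determination held no call by edgeR (unadjusted p under 0.05 in 3, DESeq2 1, limma-voom 0), and lncRNA:roX1, made in males, had 576, 521 and 449.5 CPM in the nulls and 836, 463 and 669 CPM in the controls, which overlap. Among 5 genes used as stock markers none was called by edgeR, DESeq2 or limma-voom and none had an unadjusted p under 0.05. The marker white (w) had 25.4 CPM on average in the nulls and 23.2 CPM in the controls.

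**Figure D5:**
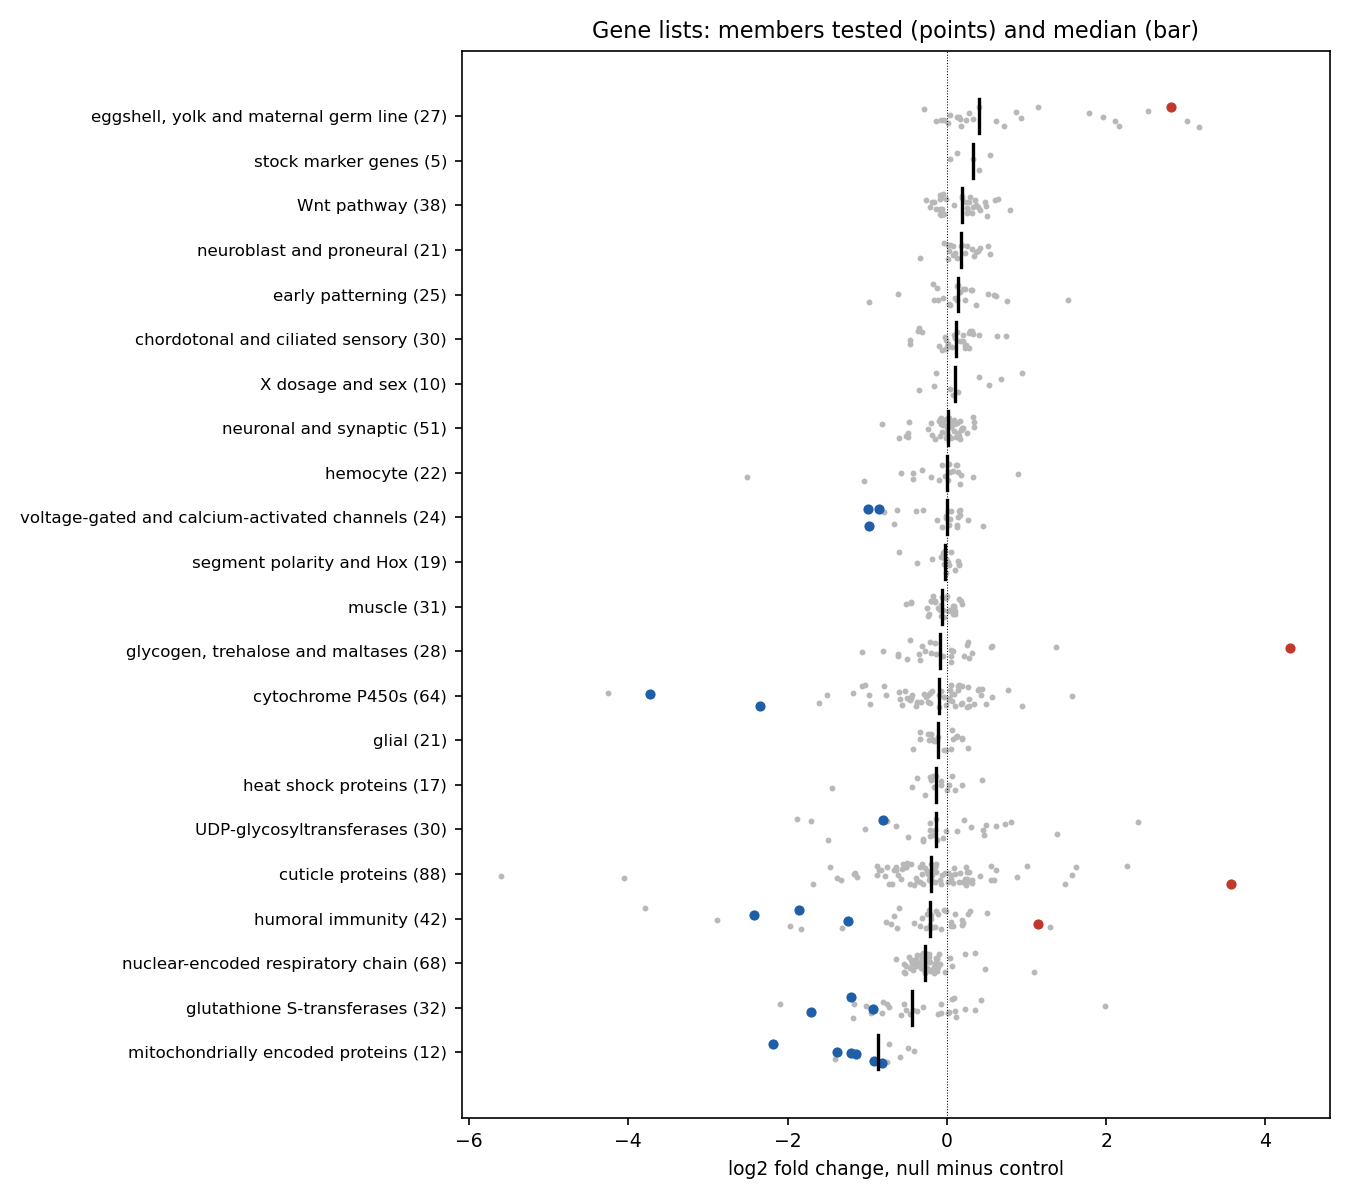
Log2 fold change (null minus control) of every tested member of 22 gene lists, with called members in red or blue, the median as a bar and the number tested in brackets. Medians run from -0.86 for the 12 mitochondrially encoded proteins and -0.44 for the glutathione S-transferases to 0.40 for the eggshell, yolk and maternal germ line genes.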

How the data were processed

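Per the labels and the methods, libraries of poly(A) RNA were made with a directional kit and read as single ends, and the authors aligned the reads with TopHat2 2.1.1 and Bowtie2 2.3.4.0 and counted them per gene over exons with Rsubread at default settings, which use no strand. The deposited counts are whole numbers, not normalized, and the counts of 17493 genes were used as deposited. The authors' limma-voom tables (log2 levels, fold changes, p-values) were not used. Genes were filtered with filterByExpr (minimum count 10, minimum total count 15), libraries scaled by TMM, and groups compared with edgeR 4.0.16's two-sided quasi-likelihood test in R 4.3.3, with Benjamini-Hochberg adjustment over all genes tested. Standard errors come from that fit. DESeq2 1.42.0 and limma 3.58.1 (voom) served as alternatives. Symbols, positions and overlaps of 17362 genes come from an Ensembl BDGP6 annotation, later than the authors' own. Named genes were sgg, the 8 called genes in each direction with the smallest p-values whose groups did not overlap, the 5 in each direction with the highest level, called members of the 22 gene lists, and called genes in runs (at least 3 called among 10 neighbouring tested genes), plus genes said to be chosen afterwards. The members and lists were chosen with earlier results of these data known, and the eggshell list was trimmed of 2 genes whose symbols only looked like chorion genes. The interval for the share on 2R takes called genes as independent, and floors cover counting error only.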

Additional observations from a re-analysis of the deposited data

Results flagged for a closer look

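For the 101 called genes the isoA change differed from the isoB change, by the interaction term of edgeR over the 14 libraries, in 43. Among the named genes the difference (isoB minus isoA log2 fold change) passed in 19. It was negative for Adk3 (-1.40), CG40498 (-1.73), Mal-B1 (-4.08), CG15599 (-3.51), asRNA:CR45600 (-4.60), CR40190 (-2.10), Yeti (-0.63), Cp15 (-3.61) and DIP-lambda (-1.73). It was positive for Tep4 (2.36), CR43669 (5.46), Tsp42El (0.72), CG17684 (1.67), lcs (10.07), CG14756 (0.80), Cyp4p2 (2.60), Ugt317A1 (0.71), SK (0.81) and SPE (1.99). The values of lcs, CR43669 and Cp15 rest on few or no counts in the isoB libraries and depend on the prior count. All of these genes had been chosen for their isoA difference, so the term is a description of them.

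Single libraries of the isoB groups of 4 lay far from the other 3 in 7 cases, all in CPM scaled over 14 libraries, where chance alone gives about 1 in 20 groups. Both isoB groups were examined for 41 named called genes, so several such cases are expected by chance. In the isoB controls these were the lowest library for Prosap (203) and the highest for Tep4 (166) and GstE9 (9.31). In the isoB zygotic nulls they were the highest library for CR43669 (0.573), lcs (0.50), Cyp4p1 (8.50) and GstE9 (11.5). Groups of 3 were not examined in this way.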

How the results depend on the processing

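All 101 called genes kept their direction in every alternative fit. With RLE scaling, no filter, 1 CPM in 3 samples, limma-voom or the adjusted p alone, 99 to 111 genes were called. DESeq2 called 400 (164 higher, 236 lower), with all 101 among them, and a fit of all 14 libraries called 295 (120 and 175), with 91 of the 101. List members called were 63 and 44 in these fits against 22, and the share of calls on 2R was 24% and 25.4% against 34.7%. Leaving out 1 library gave 6 to 183 genes called, 5 to 48 higher, 1 to 135 lower and 1 to 47 list members, with 23.9% to 40% of calls on 2R. Over these fits the median log2 fold change ranged from -0.20 to -0.087 for the P450s, 0.060 to 0.20 for neuroblast, -0.20 to 0.0049 for glial, 0.29 to 0.86 for eggshell, 0.088 to 0.25 for Wnt and 0.069 to 0.26 for X dosage genes. The interaction called 103 to 579 genes against 280, and 25 to 47 against 43 of the 101. For single genes and the mitochondrial count, 412 values kept their side of the threshold, 144 lost it and 3 moved, none with a change of direction. Set beside the isoB libraries, 48 genes had the controls alone apart with RLE scaling and also without control replicate 3, and 33 and 30 the nulls alone, in fits chosen after the data had been seen.

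Libraries with the same number did not deviate together (correlation of deviations -0.202, -0.156 and -0.102), so the numbers do not pair them. Among the other combinations it was 0.266 for null 2 with control 1, 0.201 for null 1 with control 3 and 0.19 for null 3 with control 2. The rest had -0.0862 to -0.0422. Whether any of these libraries were handled together was not tested. With a replicate block by library number 43 genes were called, 13 higher and 30 lower, with 12 list members, and 37 of the 43 were among the 101. The shallowest library, control replicate 2, held 8082962 counts, and 113 genes were called without it; how far depth limits the calls was not tested.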
